A study of Mus musculus with 13 samples.

Results

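The genes described here are 10 genes of Wnt signalling in mouse keratinocytes: the ligands Wnt3, Wnt4, Wnt7a, Wnt7b and Wnt10a, the receptor Fzd6, the nuclear factor Lef1, the feedback inhibitor Axin2, the secreted antagonist Sostdc1 and the beta-catenin antagonist Cby1. All probe sets that the platform annotation ties to 1 of these genes and to no other were taken, which gave 14 of the 20393 probe sets named to a single gene. Wnt7b, Axin2, Fzd6 and Sostdc1 had 2 probe sets each, and the other 6 genes had 1. The cells were primary mouse keratinocytes infected with a retrovirus for the DNp63alpha isoform of p63 joined to the estrogen receptor domain, which tamoxifen switches on. A single array held untreated infected cells, and 12 arrays followed such cells in 20 min steps after tamoxifen, the last at 240 min. All 13 arrays carried the fusion construct, and cells without it, or kept without tamoxifen over the same time, were not analysed here. Change with time in culture or with tamoxifen itself therefore cannot be told apart from change with induction. Mouse strain, age and the number of cultures are not given in the sources used here, so each p-value reflects the spread between arrays, which may be technical.

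Wnt ligands are lipid-modified secreted proteins that bind Frizzled receptors together with a co-receptor of the Lrp family. In the canonical branch this binding stops the breakdown of beta-catenin, which enters the nucleus and switches on target genes together with Lef1 and Tcf factors. In skin the pathway is known for its role in the formation and cycling of hair follicles, and basal keratinocytes make several of the ligands themselves. Levels are probe set intensities on the linear scale as deposited, and changes are on the log2(intensity + 16) scale, on which the change of a dim probe set is understated.

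The arrays had medians between 237.4 and 251.5 intensity units, with the highest at 200 min, and ratios of the 3' to the 5' Gapdh probe set between 0.899 and 0.937. The labelled cell type was checked with 10 keratinocyte markers. All 10 were above the filter on dim genes, a log2 level of 7.83, and their summed intensity was 88908 to 92660 up to 60 min and 89666 to 94436 from 80 min. Of 8 melanocyte markers on the array 6 were above the filter, among them Dct, Tyrp1 and Pmel at mean log2 levels of 11.21, 10.63 and 10.59, with a summed intensity of 10276 to 11494 up to 60 min and 9690 to 10828 later. Of 12 fibroblast and dermal papilla markers 3 were above it (4589 to 5341, then 4593 to 5423), of 9 immune cell markers 2 (2563 to 2873, then 2481 to 2910) and of 8 endothelial and muscle markers 3 (4522 to 4588, then 4512 to 5379). Dcn, Lum, Pdgfra, Thy1, Ptprc, Cd3e, Pecam1 and Cdh5 were all below it, and no marker was at 0. In these lists Vim, Fbln1, Col1a1, Csf1r, Cd68, Acta2, Tagln and Des were above it. Acta2 had a mean log2 level of 11.55 and Vim 10.2. Along the linear trend described below, Acta2, Vim and Fbln1 rose and Cd68 fell (limma adjusted p = 0.0165, 0.0481, 0.00245 and 0.000978). Col1a1, Csf1r, Tagln and Des did not pass. Of the melanocyte markers above the filter only Mitf passed, with a 1.27-fold fall (limma adjusted p = 0.00699). Of the keratinocyte markers only Krt5 passed, with a 1.08-fold rise (limma adjusted p = 0.00803). Of 10 hair follicle markers 3 were above the filter. Among them Sox9 and Krt17 fell along the trend (limma adjusted p = 0.000154 and 0.0121), and Msx2 rose (0.00856). The sum of all 10 was 19905 to 20265 up to 60 min and 16635 to 17875 from 80 min, without overlap. Krt17 and Sox9, which carried most of this sum, are also made by cultured keratinocytes. The part of such cells in the results below was not tested, and in a bulk sample fewer cells of a type and less RNA per cell cannot be told apart.

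For 7 of the 14 probe sets, those of Wnt4, Wnt10a, Cby1, Fzd6 and Sostdc1, the largest change between neighbouring arrays was the increase from 60 to 80 min, as it was for 8.82% of all probe sets. Of the 14 probe sets 7 read higher on every one of the 9 arrays from 80 min than on any of the 4 arrays up to 60 min, against 7.18% of all probe sets, and 1 read lower without overlap, against 6.73%. The probe sets without overlap above were those of Wnt4, Wnt10a and Cby1, both of Sostdc1, 1 of Fzd6 and 1 of Wnt7b, and the probe set that was lower belonged to Axin2. This split of the arrays was taken from earlier results of the same data.

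**Figure D1:**
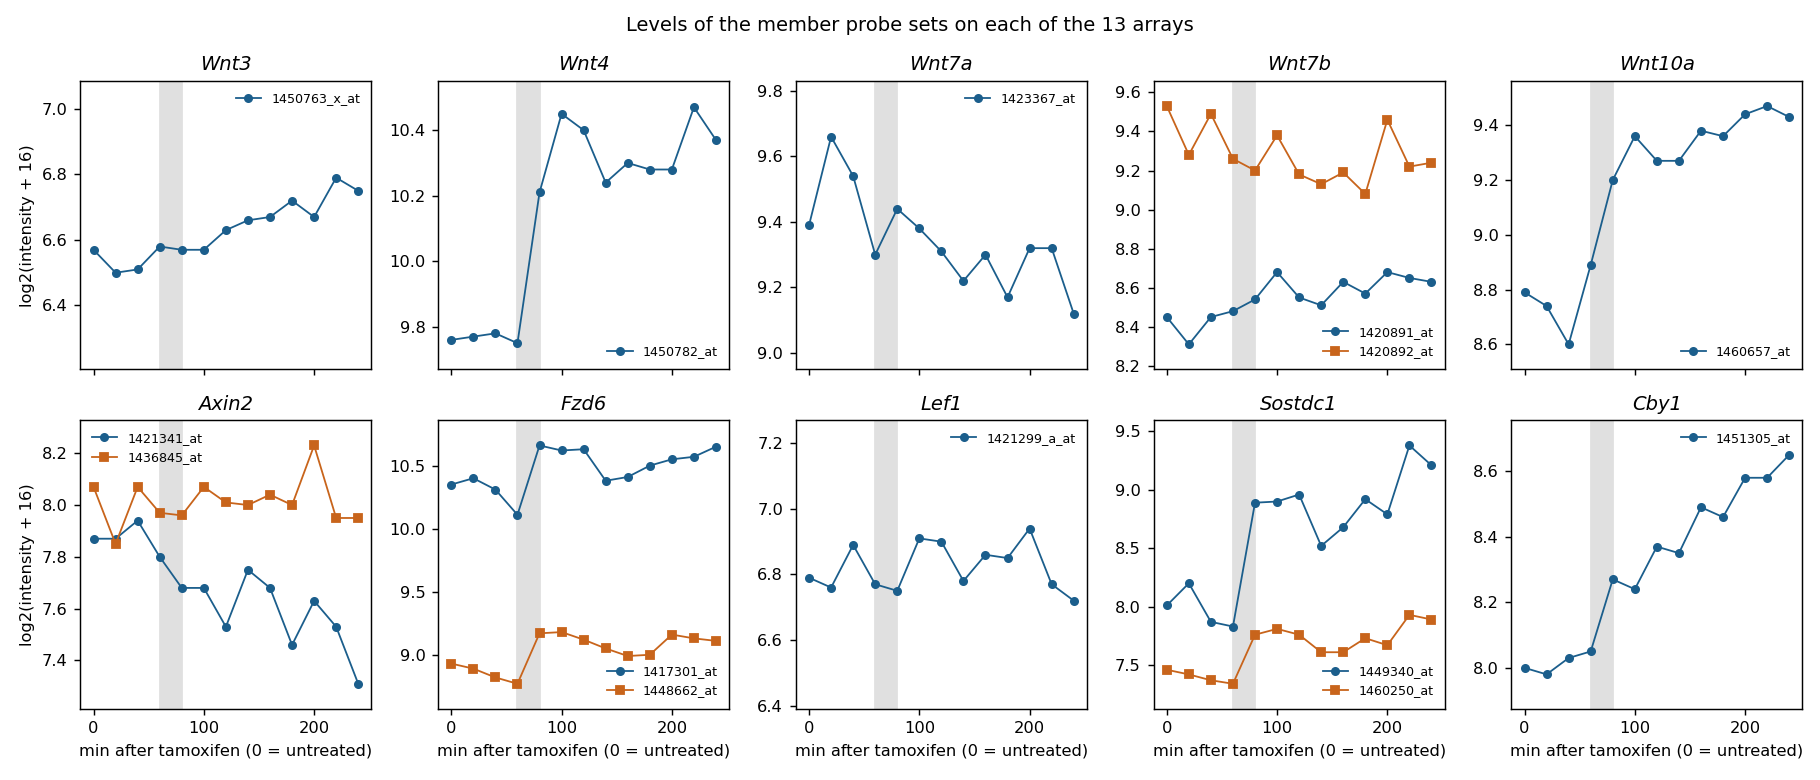
Levels of the 14 probe sets, as log2(intensity + 16), against min after tamoxifen, 1 panel per gene and 1 point per array, with the interval from 60 to 80 min shaded; panels have their own vertical range. Wnt4, Wnt10a, Fzd6 and Sostdc1 rise within the shaded interval, Cby1 goes on rising to 240 min, and the probe set pairs of Wnt7b and of Axin2 run apart.

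The linear trend over all 13 arrays was fitted to the 7436 genes above the filter, each by its brightest probe set. Of the 10 genes 8 were above the filter, and Wnt3 and Lef1 were not. Mean levels of the 8 were above the filter in the first hour alone (lowest 7.98) as well as later (lowest 8.02). Sostdc1, Wnt10a, Cby1 and Wnt4 rose and Wnt7a fell, so 4 of 8 rose against 22.3% of all genes tested and 1 of 8 fell against 17.6% (limma, adjusted p under 0.05). In a second fit to all 20393 probe sets, dim ones included, 7 of the 14 probe sets rose against 12.2% of all probe sets and 2 fell against 10.2%. The median slope of the 8 genes was 0.12 per hour, against 0.0049 for all genes tested. The 10 genes were chosen with earlier results of these data known. Such shares, here and in the other comparisons, therefore describe the genes and test nothing.

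**Figure D2:**
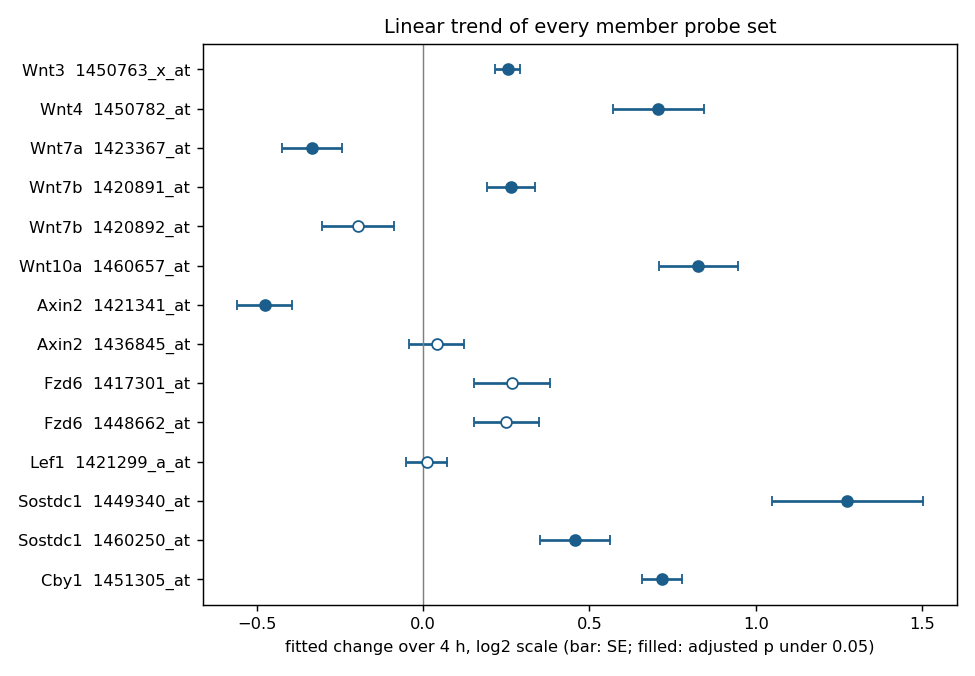
Fitted change over 4 h on the log2 scale, with its SE, for each of the 14 probe sets in the limma fit to all 20393 probe sets; filled points have an adjusted p under 0.05. Sostdc1 stands farthest to the right at 1.28 and Axin2 (1421341_at) farthest to the left at -0.48, and the pairs of Fzd6 and Sostdc1 lie on the same side of 0 while those of Wnt7b lie on opposite sides.

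When the 9 arrays from 80 min were set against the 4 up to 60 min, 5 of the 8 genes were higher later and 1 was lower, against 21.7% and 20.1% of all genes (limma, adjusted p under 0.05). The genes that were higher were Sostdc1, Wnt10a, Wnt4, Cby1 and Fzd6, and Wnt7a was lower. Among all probe sets, 9 of the 14 were higher later, against 12.7%, and 1 was lower, against 12.4%. The late window (180 to 240 min) against the early window (20 to 80 min) called the same genes as the trend, 4 higher against 15.1% of all genes and 1 lower against 11.1%. The 1 lower gene, Wnt7a, lost this call without the 20, 40, 180 or 240 min array (adjusted p from 0.0654 to 0.0972). The spline, which allows a curve in time, called Wnt4, Wnt10a, Sostdc1 and Cby1, 4 of 8 against 24.9%. These comparisons use the same arrays and do not support each other.

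Wnt4 had the largest increase between the 60 and 80 min arrays among the ligands, 1.38-fold. It signals in kidney, gonad and skin, and its probe set (1450782_at) read 851 in untreated cells, 860 at 20 min, 862 at 40 min and 843 at 60 min. It then read 1171 at 80 min and 1387 at 100 min, and between 1171 and 1402 with a median of 1243 on the 9 later arrays. The 4 early arrays were thus within a narrow band and every later array lay above it. The later mean was 1.49-fold the earlier one (0.57 ± 0.049 on the log2 scale, SE, 4 against 9 arrays; limma adjusted p = 1.12e-06), and the call held in each of its 26 alternatives. From 80 to 240 min the slope of Wnt4 was 0.024 ± 0.035 per hour (limma adjusted p = 0.738). The trend over all 13 arrays was a 1.63-fold rise (adjusted p = 0.00126), and it was lost when a step between 60 and 80 min was fitted beside the line (0.021 per hour, adjusted p = 0.697).

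Wnt10a, a ligand needed for teeth, hair and other skin appendages, also rose after the first hour. It read 426 in untreated cells, 412 at 20 min, 372 at 40 min and 459 at 60 min, and from 573 to 692 with a median of 641 later. No later array fell into the earlier range. The difference was 1.52-fold (0.60 ± 0.058, SE, 4 against 9 arrays; limma adjusted p = 2.36e-06), and the fitted rise over the course was 1.77-fold (0.83 ± 0.12, SE, 13 arrays; adjusted p = 0.000191). From 80 min its slope was 0.083 ± 0.025 per hour and did not pass (adjusted p = 0.142). With a step beside the line the slope was 0.081 per hour (adjusted p = 0.128) and the step 0.42 ± 0.079 (adjusted p = 0.00427).

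Wnt7a, a ligand of epidermis and limb ectoderm, went the other way. It read 657 in untreated cells, 795 at 20 min, 727 at 40 min and 615 at 60 min, and from 540 to 679 with a median of 621 from 80 min. The highest of all its values was at 20 min and the lowest at 240 min, and the groups overlapped, with 4 of 9 later arrays below all earlier ones. Its trend was a 1.26-fold fall (-0.33 ± 0.088, SE, 13 arrays; limma adjusted p = 0.00784), which kept its call without each array in turn. The difference after the first hour was smaller (-0.19 ± 0.067, adjusted p = 0.0363), and this call was lost without the 20, 40, 140, 180 or 240 min array, with adjusted p from 0.0562 to 0.172, with quantile normalization (0.0503) and among all probe sets (0.0529). Without the 20 min array the difference was -0.12. With a step beside the line the slope of Wnt7a was -0.078 per hour and no longer passed (adjusted p = 0.206).

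The upstream sequences of Wnt4 and Wnt7a are shown because these 2 ligands changed in opposite directions and the RefSeq promoter table, on build GRCm38.p6, holds both. Each is the 250 bases before the annotated start, on the gene's strand, with GC boxes (GGGCGG on either strand) in capitals. The Wnt4 window is chr4:137277385-137277634 on the plus strand and the Wnt7a window is chr6:91411354-91411603 on the minus strand.
Wnt4: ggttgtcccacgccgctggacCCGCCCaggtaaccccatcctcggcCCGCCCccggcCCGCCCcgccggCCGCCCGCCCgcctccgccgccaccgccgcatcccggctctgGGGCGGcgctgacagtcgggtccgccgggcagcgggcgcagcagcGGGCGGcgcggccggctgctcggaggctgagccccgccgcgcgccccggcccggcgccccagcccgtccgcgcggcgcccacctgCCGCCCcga
Wnt7a: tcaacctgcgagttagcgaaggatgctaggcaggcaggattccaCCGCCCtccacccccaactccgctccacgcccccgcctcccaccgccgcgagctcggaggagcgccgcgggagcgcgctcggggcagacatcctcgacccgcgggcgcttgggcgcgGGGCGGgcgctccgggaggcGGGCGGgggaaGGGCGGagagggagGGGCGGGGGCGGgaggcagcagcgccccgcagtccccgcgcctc
The Wnt4 window held 8 GC boxes, some overlapping, at a GC content of 85.2%, and the Wnt7a window 6 at 77.6%; the median GC content of all promoter windows of this length was 52.4%, and 32.7% of the 32851 windows held a GC box. Neither window held the TCF/LEF heptamers CTTTGAA and CTTTGAT or their relatives CTTTGTA and CTTTGTT (14.8% of windows), the AP-1 site TGANTCA (6.75%), the p53 family decamer (7.13%) or the estrogen response element (0.0639%), searched on both strands. A match is a run of letters and not a measured site.

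The 2 probe sets of Wnt7b, a ligand made by basal keratinocytes, disagreed. The brighter one (1420892_at) read 722 in untreated cells, 605, 705 and 597 at 20, 40 and 60 min, and 526 to 688 with a median of 574 later. Its fitted change was a fall of 1.15-fold that did not pass (-0.20 ± 0.11, SE, 13 arrays; limma adjusted p = 0.167), and it passed without the 200 min array (adjusted p = 0.0391), without the 200 and 220 min arrays (0.0374) and with array weights (0.00614). The later arrays differed by -0.16 ± 0.069 (SE; adjusted p = 0.0794), which passed in 6 of 26 alternatives, among them without the 60 or the 200 min array (0.0430 and 0.0231). The dimmer one (1420891_at) read 333, 302, 333 and 341 on the first 4 arrays and 349 to 395 with a median of 379 later, with no overlap. It rose 1.20-fold among all probe sets (0.26 ± 0.071, SE, 13 arrays; limma adjusted p = 0.0136), and this call was lost without the 20 min array (adjusted p = 0.0582), without the 200 and 220 min arrays (0.0540) and with a step beside the line (0.031 per hour, 0.633). Over the 13 arrays the 2 probe sets had a Pearson correlation of -0.126, so no direction is given for Wnt7b.

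Wnt3, a canonical ligand, was near the bottom of the measured range, at percentile 5.33 of mean level among probe sets. Its probe set (1450763_x_at), of a kind that can bind related transcripts, read 79.1 in untreated cells, 74.4 at 20 min, 75.3 at 40 min and 79.5 at 60 min, and 78.7 to 94.8 with a median of 85.5 later. All these values were below the lower quartile of every array, which was at least 121.3. Among all probe sets it nevertheless rose (0.25 ± 0.037 over 4 h, 1.19-fold; limma adjusted p = 0.000309), a call that was lost with a step beside the line (0.071 per hour, adjusted p = 0.145). Unlike Wnt4 it made no move from 60 to 80 min (79.5, then 78.9), and 7 of 9 later arrays lay above the earlier ones. Its difference after the first hour, 0.13 ± 0.038 (limma adjusted p = 0.0185), was lost without the 20 or the 40 min array (0.0674 for each).

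Fzd6, the only Frizzled among these genes and known for the orientation of hair follicles, had 2 probe sets that moved alike, with a Pearson correlation of 0.914 over the 13 arrays. The brighter one (1417301_at) read 1291, 1333, 1250 and 1092 on the first 4 arrays and 1315 to 1601 with a median of 1504 later. Its lowest value, at 60 min, stood directly before its highest, at 80 min, a change of 0.55 on the log2 scale, and 8 of 9 later arrays were above all earlier ones. The dimmer one (1448662_at) went from 421 at 60 min to 560 at 80 min, and its 4 early values, 421 to 472, did not overlap the later ones, 494 to 566. The later arrays were higher by 0.26 ± 0.062 for the brighter and 0.25 ± 0.048 for the dimmer (SE, 4 against 9 arrays; limma adjusted p = 0.00342 among genes and 0.00103 among all probe sets). The linear trend passed for neither (limma adjusted p = 0.0804 and 0.0792), and without the 80 min array it passed for both (0.0375 and 0.0394), as it did for the dimmer one without the 100 min array (0.0474). The call of the step was lost for both when the step was moved to 40 to 60 min or to 80 to 100 min.

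Axin2 is a scaffold of the complex that degrades beta-catenin, is itself switched on by beta-catenin, and is widely used as a readout of the pathway. Its brighter probe set (1436845_at) read 253, 215, 252 and 234 on the first 4 arrays and 231 to 285 with a median of 241 later, and the groups overlapped. It did not pass in any of the 5 comparisons, with a fitted change of 0.041 ± 0.081 over 4 h (SE, 13 arrays; limma adjusted p = 0.716). The dimmer probe set (1421341_at) read 217, 217, 230 and 207 up to 60 min and 143 to 199 with a median of 182 later, and every later array was below every earlier one. Among all probe sets it fell 1.39-fold (-0.48 ± 0.082, SE, 13 arrays; limma adjusted p = 0.000832), and its lowest value was at 240 min. The call held without each array in turn and was lost with a step beside the line (-0.096 per hour, adjusted p = 0.210). The 2 probe sets had a Pearson correlation of 0.059 over the 13 arrays. With the mean of both in place of the brighter one, Axin2 fell (-0.054 per hour, limma adjusted p = 0.0210), so its direction depends on the probe set.

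Lef1, the nuclear partner of beta-catenin in the hair follicle, was dim throughout. Its probe set (1421299_a_at) read 94.7, 92.2, 103 and 93.1 on the first 4 arrays and 89.2 to 107 with a median of 99.1 later, below the lower quartile of every array. No change was detectable at this level (0.011 ± 0.062 over 4 h, SE, 13 arrays; limma adjusted p = 0.934 among all probe sets).

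Sostdc1, a secreted protein also called Wise or ectodin that binds both BMPs and the Wnt co-receptor Lrp6, had the fourth largest slope upward of all 7436 genes. The brighter probe set (1449340_at) read 241 in untreated cells, 278 at 20 min, 218 at 40 min and 212 at 60 min. It then read 457 at 80 min, 462 at 100 min, 480 at 120 min, 351 at 140 min, 393 at 160 min, 470 at 180 min, 428 at 200 min, 651 at 220 min and 578 at 240 min. The move from 60 to 80 min alone was 2.07-fold, the later values dipped at 140 and 160 min, and the last 2 arrays were the highest. The dimmer probe set (1460250_at) read 146 at 60 min, 201 at 80 min, 179 at both 140 and 160 min and 228 at 220 min, and the 2 had a Pearson correlation of 0.982 over the 13 arrays.

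Set against the first hour, Sostdc1 was 1.92-fold higher from 80 min (0.94 ± 0.12, SE, 4 against 9 arrays; limma adjusted p = 3.44e-05). The dimmer probe set was 1.28-fold higher (0.35 ± 0.057, limma adjusted p = 0.000254 among all probe sets). The size of the change thus differed between the probe sets by more than 1.5 times in fold, and the cause was not tested. With a step beside the line, the step of Sostdc1 was 0.70 ± 0.20 (adjusted p = 0.0335) and its slope 0.11 ± 0.074 per hour (adjusted p = 0.356). From 80 to 240 min alone the slope was 0.14 ± 0.076 per hour (adjusted p = 0.326).

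Cby1, the mouse Chibby protein, binds beta-catenin and keeps it from Lef1 and Tcf factors, and also sits at the base of cilia. It had the smallest p-value for the linear trend of all 7436 genes. Its probe set (1451305_at) read 239 in untreated cells, 236 at 20 min, 246 at 40 min and 250 at 60 min, then 294 at 80 min, 285 at 100 min, 314 at 120 min and 310 at 140 min. It went on to 343 at 160 min, 337 at 180 min, 366 at 200 min, 367 at 220 min and 385 at 240 min. The first 4 arrays were nearly level and every later array was above them, with the highest value on the last array. The fitted rise was 1.64-fold (0.72 ± 0.055 over 4 h, SE, 13 arrays; limma adjusted p = 8.65e-06), and its call held in each of its 26 alternatives, with slopes from 0.15 to 0.19 per hour in those that keep time in hours.

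From 80 to 240 min the slope of Cby1 was 0.15 ± 0.023 per hour (SE, 9 arrays; limma adjusted p = 0.0419), the only 1 of the 8 genes to pass. Upward slopes passed for 0.0134% of all genes tested, which is Cby1 alone, and downward slopes for 0.0538%. This call was fragile: it was lost without the 80, 100, 120, 140, 160, 180 or 200 min array, with arrays centred on their medians (adjusted p = 0.0526), with quantile normalization (0.0603) and with no filter (0.0742), while the slope stayed between 0.13 and 0.17 per hour. Adjusted p ranged from 0.0292 to 0.266 over its 19 alternatives. In the fit with slope and step together, the slope of Cby1 was 0.15 ± 0.020 per hour and passed (adjusted p = 0.0283), the only gene of 7436 to do so (0.0134%), and its step was 0.11 ± 0.055 (adjusted p = 0.205). Over all 20393 probe sets neither slope of Cby1 passed (adjusted p = 0.0906 from 80 min and 0.0907 beside the step). In the same fit Wnt4, Wnt10a and Sostdc1 had a step that passed, against 13.1% of all genes, and no slope that did. The fitted slope of Sostdc1 from 80 min, 0.14, was close to that of Cby1 with a larger SE, and whether the slope of Cby1 differs from those of the other genes was not tested.

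**Figure D3:**
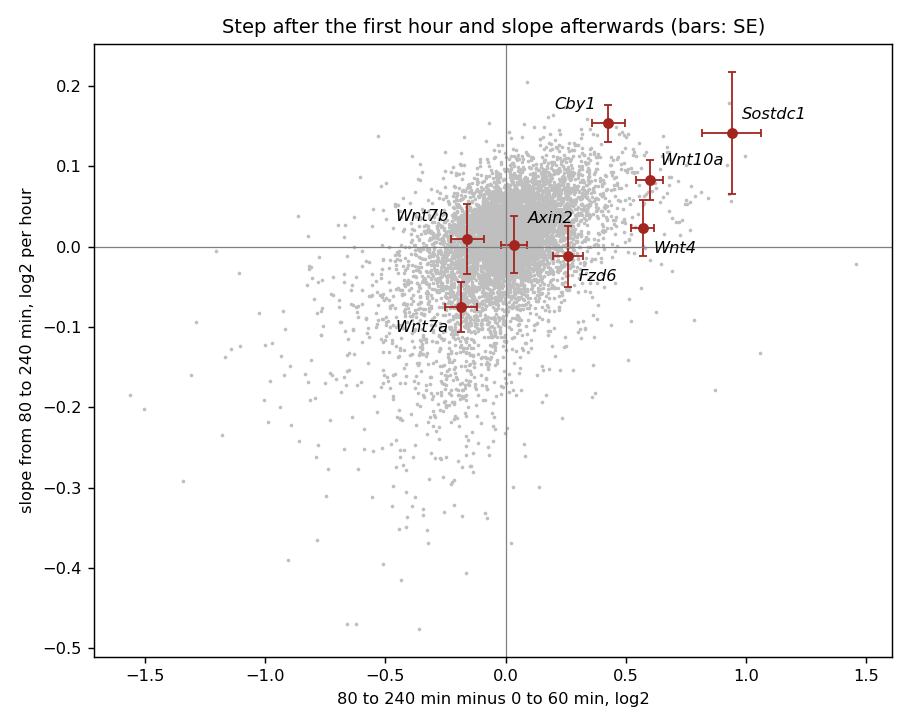
For each of the 7436 genes above the filter (grey), the mean log2 level from 80 to 240 min minus that from 0 to 60 min, against the slope from 80 to 240 min in log2 per hour; the 8 genes described are in red with SE bars. Sostdc1 lies at a difference of 0.94 with a slope of 0.14 and a wide SE bar, Wnt4 at 0.57 with a slope of 0.024, and Cby1 at 0.43 with a slope of 0.15.

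The bases upstream of Cby1 are shown because Cby1 had the smallest p-value for the trend. They are chr15:79658977-79659102 of GRCm38.p6 on the plus strand, the 126 bases of the RefSeq window that lie before the annotated gene, with the longest exact repeat in capitals.
Cby1: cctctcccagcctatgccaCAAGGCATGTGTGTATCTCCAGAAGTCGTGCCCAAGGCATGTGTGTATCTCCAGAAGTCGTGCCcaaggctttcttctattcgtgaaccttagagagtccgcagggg
A stretch of 32 bases stands there in 2 copies directly after each other. The whole window of 250 bases held no GC box and no match to the TCF/LEF, AP-1, p53 family or estrogen response motifs given above. It held 1 CCAAT box (CCAAT, in 33.8% of windows). This box starts at base 231 of the window, past the 126 bases printed and within the annotated gene.

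For the 6 genes past at least 1 of these tests in the fit to genes, the genes with the most similar course were listed as a description. They were ranked by Pearson correlation of log2 levels over the 13 arrays among genes above the filter, skipping RIKEN, predicted and unnamed transcripts. All pairs share the same arrays and the step after the first hour. Closest to Cby1 were Pml (0.967), Triap1 (0.966) and Ubac1 (0.966), and closest to Sostdc1 were Gpx8 (0.986), Hsdl2 (0.984) and Pigp (0.982). Wnt4 ran closest to Dcxr (0.986), Cav1 (0.981) and Ldhb (0.981). The course of Wnt10a was most like those of Fam216a (0.990), Atp5c1 (0.990) and Eci2 (0.989). Wnt7a was most like Igsf8 (0.910), Pias1 (0.901) and Ptgr1 (0.900), and Fzd6 like Pcyox1 (0.971), Pdrg1 (0.969) and Procr (0.956). Among the members themselves, Wnt4 correlated with Wnt10a at 0.942 and with Sostdc1 at 0.938.

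In the wider pathway rises did not outnumber falls along the trend. The genes described above were chosen with earlier results of these data known, and so were the lists used here. A contrast between the shares of the lists and those of the described genes therefore tests nothing. Of 114 genes in 8 lists of Wnt components and targets, 101 were on the array and 50 were above the filter, of which 9 rose (18%) and 11 fell (22%) along the trend, near the shares of all genes. Their median slope was -0.0024 per hour. Of 14 other ligands only Wnt6 and Wnt11 were above the filter, and neither passed (limma adjusted p = 0.264 and 0.577). Of the 3 genes of ligand lipidation, export and removal none passed the trend. Wls, which carries Wnt proteins to the cell surface, had an adjusted p of 0.770, and the acyltransferase gene Porcn had 0.0670 for the trend but was higher after the first hour by 0.35 (limma adjusted p = 0.000241).

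Among receptors 3 of 6 tested fell (50%) and 1 rose (16.7%), against 17.6% and 22.3% of all genes. Lists this small give no direction for a group of genes. Fzd3 fell 1.23-fold, Lrp6 1.20-fold and Fzd7 1.16-fold (limma adjusted p = 0.00671, 0.0473 and 0.0164). For Lrp6, the co-receptor to which Sostdc1 binds, the difference after the first hour did not pass (-0.097, limma adjusted p = 0.346). Ryk, a tyrosine kinase-like Wnt receptor, rose 1.15-fold (limma adjusted p = 0.0380). Of 3 other secreted or surface antagonists tested 2 rose, against 22.3% of all genes. Apcdd1, a membrane inhibitor of Wnt signalling in the hair follicle, went from 8.81 to 9.39 on the log2 scale between untreated and 240 min. Its rise along the line was 1.55-fold (limma adjusted p = 0.000107), and Dkk3 rose 1.15-fold (0.0259).

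In the cytoplasm 2 of 12 genes fell (16.7%, near the 17.6% of all genes) and none rose (22.3% of all genes). Csnk1e, a casein kinase of the pathway, fell 1.35-fold and Gsk3b, the kinase that marks beta-catenin for breakdown, 1.33-fold (limma adjusted p = 0.00273 and 0.00330). Of the nuclear partners 3 of 11 rose (27.3%) and 2 fell (18.2%), against 22.3% and 17.6% of all genes. Ctnnbip1, which like Cby1 blocks beta-catenin from Tcf factors, rose 1.30-fold (0.000608) and Tle5, a short form of the Groucho corepressors, 1.22-fold (0.00675). The corepressor gene Tle1 fell 1.40-fold (0.00137) and Hbp1, a repressor, 1.27-fold (0.0176).

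Other target genes of beta-catenin went both ways, 2 of 9 up (22.2%) and 3 down (33.3%), against 22.3% and 17.6% of all genes. Jun fell from 10.87 in untreated cells to 9.95 at 240 min on the log2 scale, Fosl1 fell 1.76-fold and Myc 1.45-fold along the line, and cyclin D1 (Ccnd1) rose 1.28-fold (limma adjusted p = 0.000321, 0.00284, 0.000460 and 0.000946). Jun, Fosl1 and Myc also answer to growth factor and stress signals. Of 5 tested genes for proteins that bind Cby1, 1 rose and 1 fell (20% each, against 22.3% and 17.6% of all genes). Cibar1, a partner of Cby1 at the base of cilia, rose 1.36-fold (limma adjusted p = 0.0183), and Ywhaz, a 14-3-3 protein, fell 1.11-fold (0.0439). With a step between 60 and 80 min beside the line, 0 of the 50 genes kept a slope past the threshold. Of all 7436 genes only 1 did (0.0134%), so the loss is not particular to these genes.

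**Figure D4:**
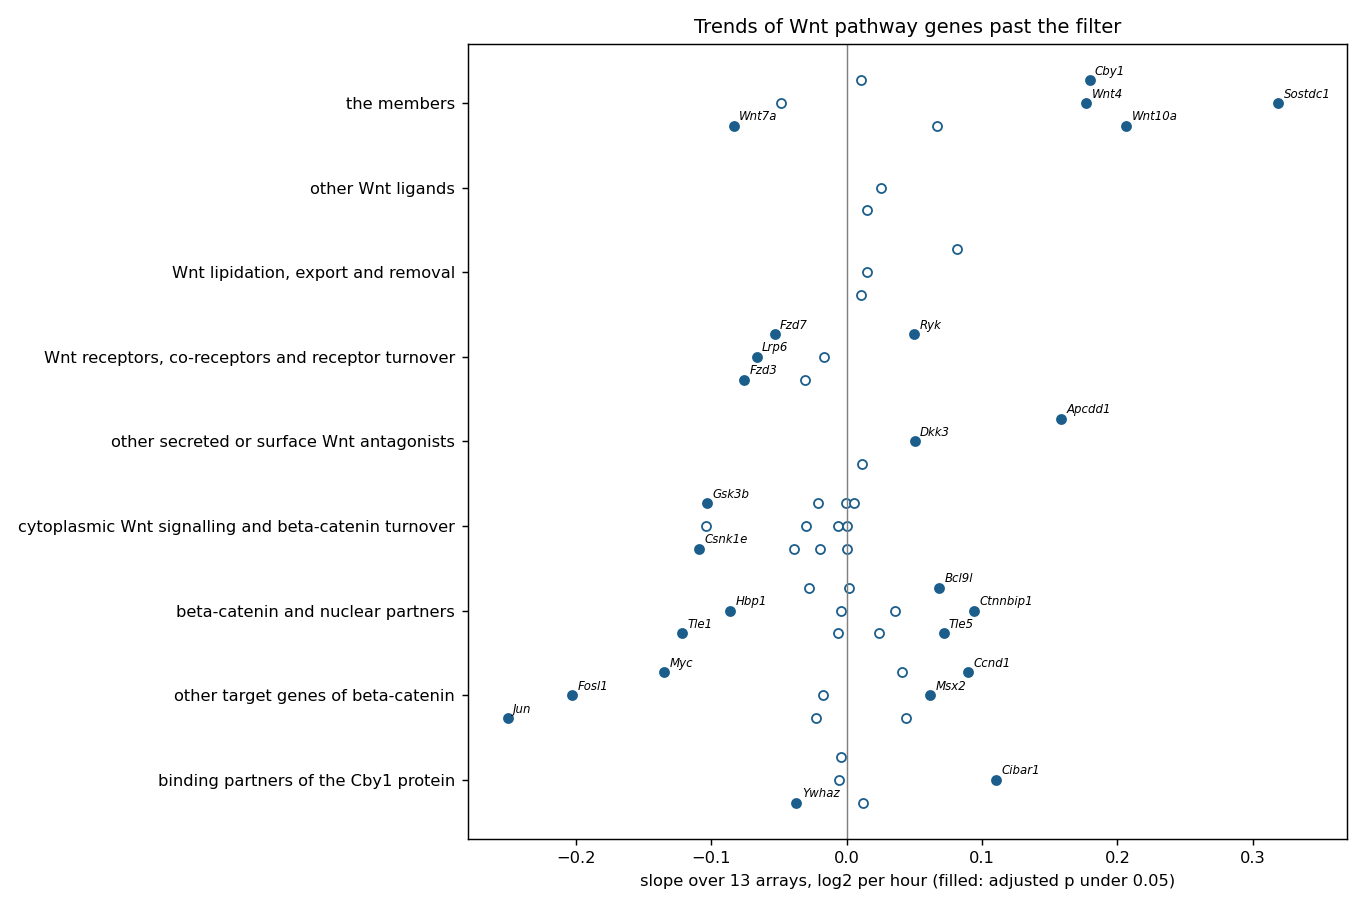
Slope over the 13 arrays in log2 per hour for each gene above the filter, in the 8 genes described and in 8 lists of Wnt components and targets; filled points have an adjusted p under 0.05 (limma) and are named. Apcdd1 at 0.16 is the highest of the other lists and Jun at -0.25 the lowest.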

How the data were processed

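Total RNA was hybridised to Affymetrix expression arrays as biotinylated cRNA, per the labels' protocols. For 22690 probe sets the authors deposited linear intensity values. No source used here names the software that summarised and scaled them. Such scaling removes change shared by most transcripts. Values were used as log2(intensity + 16). The platform table names 1 gene for 20393 probe sets, several for 691 and none for 1606. Of the probe sets with 1 gene, 20364 were matched by Entrez identifier to a symbol in a RefSeq table (GRCm38.p6). Each of 12394 genes was represented by its brightest probe set, and the 7436 genes from the 40th percentile of mean level were tested with limma 3.58.1 in R 4.3.3 (eBayes with intensity trend, two-sided, Benjamini-Hochberg threshold 0.05). A second fit took all 20393 probe sets. The spline had 3 degrees of freedom. The median residual SD about the line was 0.0873. The number of arrays, 1 per time, limits the precision. The fits were tested on simulated data with independent noise. A change of 0.25 on the log2 scale was recovered for 28% of altered genes by the trend and 76% by the step. The slope from 80 min recovered 38%, the spline 10% and late against early 60%. For a change of 0.5 these shares were 90%, 94%, 84%, 80% and 96%. For the trend, the slope from 80 min and the spline, a missing call for a change of the smaller size thus carries little weight. The step and late against early also missed some changes of this size. Far fewer genes were altered in the simulation than the trend and the step called in the real data, so the shares recovered may differ there. The members, lists and comparisons were chosen with earlier results of these data known. Besides cell type markers, named genes were the members and up to 4 genes per list with the largest slope past the threshold (up to 2 of the brightest where none passed). Also named were the 3 most similar genes above the filter per changed member, skipping RIKEN, predicted and unnamed transcripts. Alternatives were pseudocount, normalization, filter, probe set rule, moderation, array weights, time scale, step, spline and window settings, a Gapdh covariate, and arrays left out.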

Additional observations from a re-analysis of the deposited data

How the results depend on the processing

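The count of described genes with a linear trend, 5, was 3 with the filter at the 60th percentile, where Cby1 and Sostdc1 were no longer tested, 8 genes over all probe sets, and 1 with the step as a block. Without each array in turn it was 5 to 6. The step count of 6 was 4 to 8 over 27 alternatives, and the spline and late against early counts, 4 and 5, fell to 2 and 3 at the 60th percentile. The slope from 80 min, 1 gene, gave 0 with median centring, quantile normalization, no filter, the 60th percentile and all probe sets, and 0 to 1 without 1 array. Axin2 turned to -0.054 per hour with its probe sets averaged. Over all genes, the trend called 2968, but 1 with the step as a block and 4571 probe sets; the slope from 80 min called 5, with 0 to 237 over its alternatives (33 without the 220 min and 237 without the 240 min array); late against early called 1947, with 634 to 3550 (986, 1050 and 1191 without the 20, 40 or 220 min array); the spline called 1849, or 4081 with array weights; the step called 3103, or 5117 probe sets. Pathway genes with a trend, 20, went to 0 with the step as a block. The causes were not tested, beyond the genes or arrays each alternative leaves out. No paired analysis was possible because each time has 1 array. Dim probe sets, such as those of Wnt3 and Lef1, limit what can be seen.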

Other observations

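The array at 200 min, which had the highest median of the 13 (251.5), carried the highest value of Lef1 (107) and of the brighter Axin2 probe set (285), and the highest value of the brighter Wnt7b probe set after 40 min (688). On the arrays before and after it, at 180 and 220 min, Lef1 read 99.1 and 93.4, Axin2 241 and 232, and Wnt7b 526 and 580. The probe sets of Lef1 and Axin2 (1436845_at) had a Pearson correlation of 0.789 over the 13 arrays. Cby1, at 366 on that array and 367 on the next, showed no such peak.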
